A study of Mus musculus with 2 samples.

Results

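Committed oligodendrocyte precursors (COPs) of the mouse spinal cord were examined in single-cell RNA-seq of whole cords at postnatal day 4. COPs were taken as cells with a unique molecular identifier (UMI, the tag of a single captured RNA molecule) in at least 3 of Bmp4, Neu4, Gpr17, Epcam, Lims2 and Bcas1, with Bmp4 or Epcam among them. A COP was also allowed a UMI in at most 1 of Mog, Mal, Opalin, Hapln2, Cx3cr1 and Cldn5, which mark mature oligodendrocytes, microglia and endothelial cells. The rule found 990 COPs among 17043 cells that passed the cell filters, out of 52340 barcodes in the count tables. The library labelled SMA held 271 of them and the one labelled Con 719.

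In spinal muscular atrophy (SMA), too little SMN protein is made. The SMA mice had the genotype mSmn-/-, hSMN22tg/0, that is, no intact mouse Smn gene with a human SMN2 transgene, and the Con mice were mSmn+/-, hSMN22tg/0, with an intact mouse Smn allele and the same transgene. All were of the FVB strain and of the severe Taiwanese model, and each library was a pool of 3 littermates whose sexes were not stated. With 1 library per genotype no difference between the genotypes could be set against a spread between animals, so no test was made. All intervals below are at the 95% level and cover counting error only, and differences of the genotype, the sex and the library cannot be told apart.

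COPs stand between the oligodendrocyte precursor cell (OPC), which divides and carries the PDGF receptor Pdgfra, and the oligodendrocyte that wraps axons in myelin. On commitment a precursor leaves the cell cycle, loses Pdgfra and takes up genes such as Gpr17, a receptor that marks the intermediate stage, and Enpp6, a choline phosphodiesterase of newly forming oligodendrocytes. The transcription factors Myrf, Nkx2-2, Nkx6-2 and Tcf7l2 act in this step, together with Sox10 and Olig2, which are present along the whole lineage. In the postnatal spinal cord, COPs feed the wave of myelination that follows birth.

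Filtered cells had 200 to 4000 genes and under 10% mitochondrial UMIs. A barcode was left out of the library labelled SMA where the library labelled Con listed it too, since 8163 barcodes were common to both libraries. COPs were deep cells, with a median of 8197 UMIs and 3066 genes in SMA and 8850 UMIs and 3162 genes in Con. Over all filtered cells the medians were 6109 and 5638 UMIs. Summed over COPs there were 2297657 UMIs in SMA and 6529705 in Con, and summed levels are given as UMIs per 1000000 of these totals (CPM). Because the counts come from the 3′ ends of transcripts and carry no gene length, levels are compared between groups of cells for the same gene and never between genes.

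The targeted gene, Smn1, had 70.9 CPM in SMA COPs (163 UMIs) and 60.8 CPM in Con COPs (397 UMIs), a log2 ratio of 0.22 (−0.05 to 0.49). The table does not show where in the gene a UMI lies or which allele it came from, and a tag from the 3′ end may fall outside the deleted part. The gene therefore checks nothing here. Xist, the RNA of the inactive X chromosome, had a UMI in 1 of 271 SMA COPs and in 423 of 719 Con COPs, so the libraries differed in this female-specific RNA as well as in genotype.

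Of the 719 Con COPs, 677 carried a barcode that was also in the SMA list. With those barcodes kept there would be 708 SMA COPs, of which 437 were shared and 334 were COPs in both libraries. A shared barcode held in SMA a median of 17.7% of the UMIs of its Con copy. Its Xist level was 818 CPM, near the 814 CPM of Con COPs and unlike the 6.53 CPM of the unshared SMA COPs. Con COPs with a shared barcode were deeper, with a median of 9071 UMIs, than the 42 without, with 3399.5. The results below leave shared barcodes out of SMA and keep them in Con, and values with them kept are given beside some of the results.

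The values that chose the cells are given as a description. In the library labelled SMA, 128 of the 271 COPs had all 6 markers, 92 had 5, 33 had 4 and 18 had 3. In Con the numbers were 311, 249, 106 and 53. Cells just inside the threshold, with 3 markers, had a Pdgfra UMI in 44.4% of cases in SMA and 32.1% in Con and an Enpp6 UMI in 33.3% and 41.5%. Cells just outside it, with 2 markers, numbered 30 and 50, had a Pdgfra UMI in 33.3% and 32.0% and an Enpp6 UMI in 0% and 18.0%. A count of 0 of 30 cells allows a share of up to 10.0%. Among COPs with all 6 markers, Pdgfra was found in 2.34% and 2.89% of cells and Enpp6 in 71.9% and 90.7%. Pdgfra was thus found more often with 3 markers than with 6 in both libraries, and Enpp6 less often, while SMA COPs with 4 markers had Enpp6 in 30.3% of cases. These shares are unthinned, and COPs with 3 markers were shallower, with medians of 6626 and 7704 UMIs against 8516 and 9260 with 6.

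With shared barcodes left out of SMA alone, COPs made up a smaller share of the library labelled SMA. They were 3.99% of its 6787 filtered cells (exact Clopper-Pearson interval 3.54 to 4.49) and 7.01% of the 10256 filtered cells of Con (6.52 to 7.52), a log2 ratio of shares of −0.81 (−1.01 to −0.62), or 0.570-fold. OPCs, taken as cells outside the COP rule with a UMI in Pdgfra and in at least 3 of Pdgfra, Cspg4, C1ql1, Matn4, Lhfpl3 and Cacng4, were 27.0% of SMA cells and 15% of Con cells. Within the lineage, counted as OPCs, COPs and oligodendrocytes (cells with at least 2 of Mog, Mal, Opalin and Hapln2), COPs were 12.4% of 2190 cells in SMA (11.0 to 13.8) and 30.5% of 2359 in Con (28.6 to 32.4). That ratio was −1.30 (−1.48 to −1.12), or 0.406-fold.

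The direction of the COP share was the same in 9 other ways of counting, while its size depended on them. It turned when shared barcodes were left out of both libraries, a choice made after the data were seen. Con then held 42 COPs among 3689 cells (1.14%), and the ratio was 1.81 (1.34 to 2.28). Of all filtered Con cells 64.0% had a shared barcode, and of Con COPs 94.2%, so leaving them out took away a larger part of the COPs than of the other cells. The filtered Con cells that remained had a median of 1439 UMIs, against 7436 in those with a shared barcode and 6109 in SMA. The rule needs UMIs of several genes in a cell, and the part of depth in the turned ratio was not tested. Among lineage cells the same choice left 42 of 265 in Con (15.8%), with a ratio of −0.36 whose interval (−0.79 to 0.074) spans 0. The comparison of COP shares thus rests on how shared barcodes are treated. With shared barcodes kept, the ratio was closer to 0, at −0.40 (−0.54 to −0.25). A limit of 30% on ribosomal-protein UMIs, which removes 1360 cells of Con and 15 of SMA, gave −1.01, and the rule applied after each cell had been thinned to 3000 UMIs gave −1.14. Requiring 4 markers gave −0.80 and requiring 2 gave −0.76. The cell filters touched COPs too. Among barcodes above 4000 genes, 8.06% of 459 in SMA and 17.1% of 817 in Con met the rule, and among barcodes with 10 to 20% mitochondrial UMIs the shares were 0.704% and 1.79%. A share of cells does not give their absolute number in the cord.

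**Figure D1:**
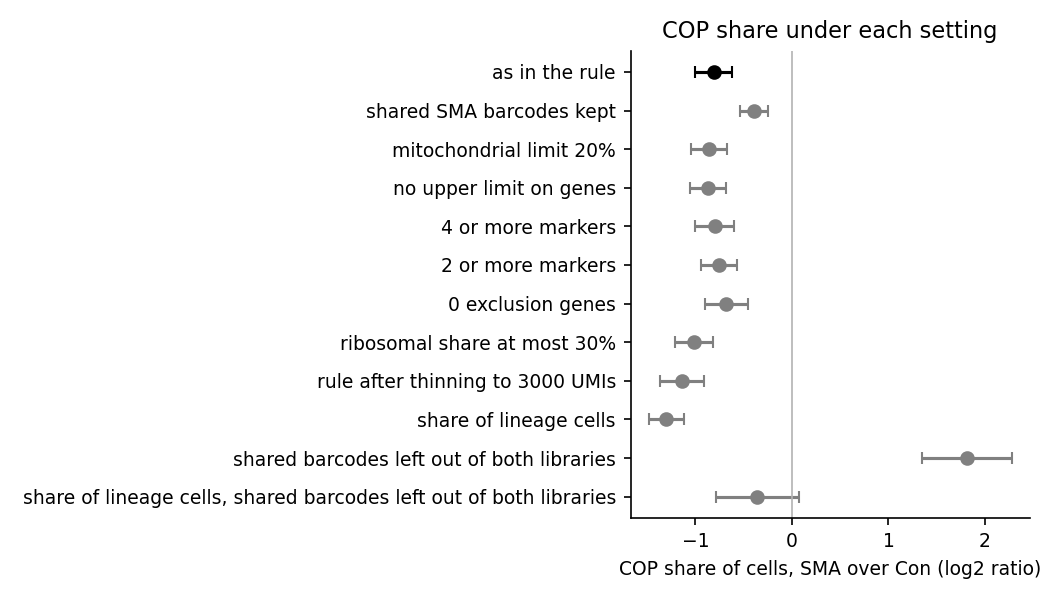
Log2 ratio of the COP share of cells, SMA over Con (x axis), for each way of counting (y axis). Points are ratios and bars 95% intervals of counting error. Points lie below 0, from −0.36 to −1.30, except with shared barcodes left out of both libraries (1.81).

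COPs were set against OPCs to see which other genes went with the 6 markers. Since the classes were drawn from these same counts, the comparison is a description with no test. Of 9786 genes with enough UMIs, 129 (1.32%) were at least 4-fold higher in COPs in both libraries and 370 (3.78%) were at least 4-fold lower. Taken alone, SMA had 1.45% higher and 4.39% lower and Con 1.43% and 5.38%. The higher genes included Enpp6, the axon guidance receptor Plxnb3, the signalling regulators Rgs16, Rassf10 and Chn2, the tubulin Tubb4a and the myelin-associated glycoprotein Mag. The 12 lowest included genes of DNA replication and mitosis, and also Ptpn5 and Gsx1. The rule's own genes Bmp4 and Epcam stood highest, as the rule requires. On 2 to 12 OPC UMIs, Bmp4 had log2 ratios of 10.45 (8.90 to 12.73) in SMA and 8.57 (7.76 to 9.53) in Con, and Epcam 8.67 (7.69 to 9.89) and 9.98 (8.13 to 13.03).

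Enpp6 (chr8:46986887-47096762, plus strand, GRCm38) had 381 CPM in SMA COPs and 536 CPM in Con COPs, against 1.49 and 5.83 CPM in OPCs, log2 ratios of 8.0 and 6.52. Plxnb3, the receptor for semaphorin 5A, had 85.3 and 137 CPM in COPs, at log2 ratios over OPCs of 5.23 and 5.02. Rassf10 had ratios of 5.93 and 5.00, and Rgs16, which limits G-protein signalling, had 4.81 and 4.48. The long noncoding RNA 9630013A20Rik stood at 389.5 and 393 CPM, with ratios of 4.93 and 4.21. Mag reached 612 and 794 CPM (4.59 and 4.09) and Tubb4a 1593 and 2429.5 CPM (4.10 and 4.17). Each of these genes was higher in COPs than in OPCs of either library, and the order of the ratios changed between libraries.

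Some of these genes share sequence with another gene. Gm15222 ranked first, with ratios of 7.34 (5.75 to 9.65) in SMA and 6.77 (5.20 to 9.06) in Con on 3 OPC UMIs each, but it lies antisense within Bmp4, with 1764 bases in common (Gm15222 at chr14:46387519-46389282, plus strand, and Bmp4 at chr14:46383520-46390669, minus strand, GRCm38). Bmp4 is a rule gene, and the strand setting of the counting was not given in the sources used here, so reads of the pair may not have been told apart. 9630013A20Rik lies antisense within Pcdh17, and Enpp6, Rgs16 and Chn2 also overlap an antisense gene.

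The upstream sequences of some of these genes are given because the Sox and bHLH factors of this lineage bind short, known letters. The 250 bases before the start are from RefSeq on GRCm38.p6, 5′ to 3′ on the gene's strand, and capitals mark ACAATG or ACAAAG, in the Sox binding class, and CAGCTG or CATATG, E-box letters of bHLH factors, on either strand (the E-box letters read alike on both). Of the 15 leading genes, 12 were matched to a window, and 4 of these held ACAATG: Enpp6 (chr8:46986637-46986886, plus), Plxnb3 (chrX:73756853-73757102, plus), 9630013A20Rik (chr14:84476425-84476674, minus) and Tmem88b (chr4:155785875-155786124, minus). Gm15222 (chr14:46387228-46387477, plus) is shown as a leading gene without it.
Enpp6: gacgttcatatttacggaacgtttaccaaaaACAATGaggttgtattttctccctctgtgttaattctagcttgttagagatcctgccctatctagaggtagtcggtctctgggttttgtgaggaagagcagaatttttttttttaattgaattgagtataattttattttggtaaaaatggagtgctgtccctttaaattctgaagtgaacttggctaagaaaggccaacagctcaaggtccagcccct
Plxnb3: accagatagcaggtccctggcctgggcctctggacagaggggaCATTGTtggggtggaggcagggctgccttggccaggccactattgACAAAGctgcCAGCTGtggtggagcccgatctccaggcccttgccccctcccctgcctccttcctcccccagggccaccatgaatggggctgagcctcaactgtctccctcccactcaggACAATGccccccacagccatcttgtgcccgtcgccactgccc
9630013A20Rik: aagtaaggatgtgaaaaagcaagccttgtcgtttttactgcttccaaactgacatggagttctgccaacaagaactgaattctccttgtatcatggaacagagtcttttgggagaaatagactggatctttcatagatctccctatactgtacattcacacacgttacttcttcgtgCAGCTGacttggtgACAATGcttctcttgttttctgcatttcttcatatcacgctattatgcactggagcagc
Tmem88b: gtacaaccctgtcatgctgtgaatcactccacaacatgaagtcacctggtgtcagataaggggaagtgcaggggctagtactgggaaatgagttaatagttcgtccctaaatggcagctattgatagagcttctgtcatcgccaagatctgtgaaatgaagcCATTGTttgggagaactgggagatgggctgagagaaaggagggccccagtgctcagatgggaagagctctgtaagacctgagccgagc
Gm15222: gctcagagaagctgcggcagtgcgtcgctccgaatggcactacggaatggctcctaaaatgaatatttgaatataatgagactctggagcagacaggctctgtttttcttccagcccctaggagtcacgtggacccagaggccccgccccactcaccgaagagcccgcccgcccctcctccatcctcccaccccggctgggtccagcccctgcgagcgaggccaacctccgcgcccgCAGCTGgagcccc

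The ACAATG letters began 219 bases before the start of Enpp6, 207 and 42 bases before that of Plxnb3, 59 before that of 9630013A20Rik and 88 before that of Tmem88b. In windows that also took in 50 bases past the start, ACAATG was in 13.4% (19 of 142 windows) of the genes higher in COPs and in 5.17% (18 of 348) of those lower. The share was 7.14% over windows of all compared genes and 12.6% over all 32851 windows of the table. CAGCTG was at 16.9% in the higher genes and 15.5% in the lower genes, against 14.8% of compared genes, and ACAAAG was at 16.2%, 14.4% and 13.1%. CATATG was in 0.704% of windows of the higher genes and 1.6% of those of compared genes. The letters are a description of these windows and were not tested as sites.

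**Figure D2:**
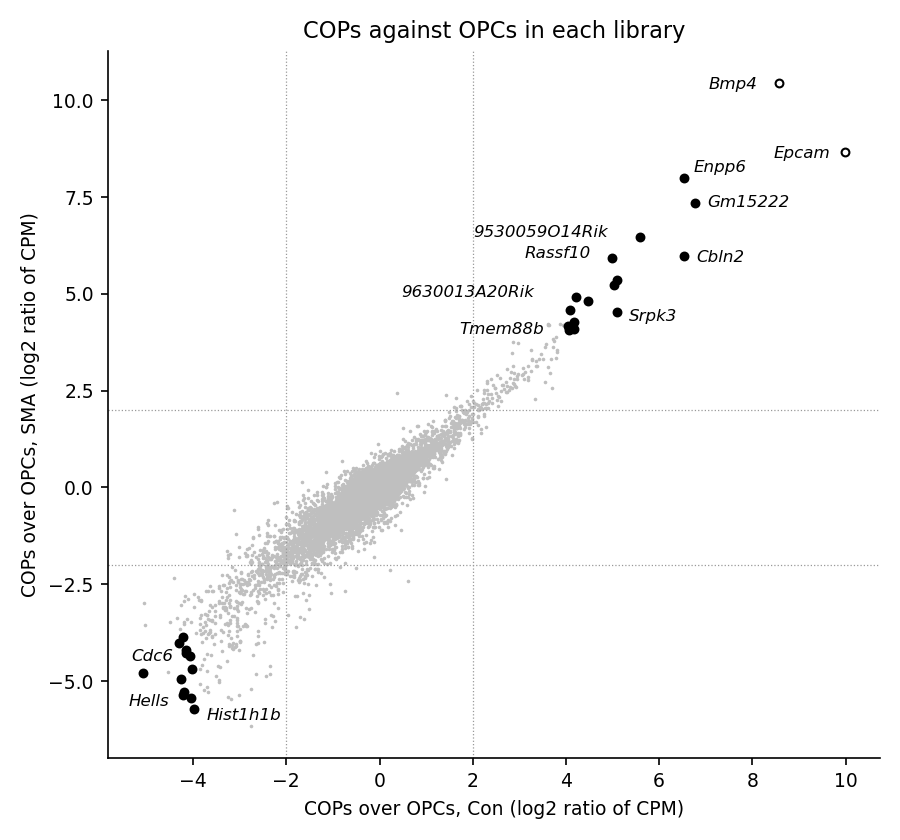
Log2 ratio of COP over OPC level in Con (x axis) and SMA (y axis), 1 dot per gene, with dotted lines at 4-fold. Filled points are the named genes and open circles the rule genes Bmp4 and Epcam. Enpp6 lies at 6.52 and 8.0, and the S-phase gene Hist1h1b at −3.99 and −5.73.

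Genes of cell division were lower in COPs. All 18 cell-cycle genes of the list were at least 2-fold lower in COPs than in OPCs of both libraries, where 11.8% of all genes compared were, with a median log2 ratio of −3.82 in SMA and −3.26 in Con. Outside the list, the linker histone Hist1h1b, made in S phase, had log2 ratios of −5.73 and −3.99, the ubiquitin ligase subunit Dtl, which controls replication licensing, −4.01 and −4.31, and Uhrf1, which copies DNA methylation to new strands, −3.87 and −4.21. Other leading genes such as the origin loader Cdc6 and the mitotic kinesin Kif4 had 1 UMI in all SMA COPs, against 139 and 194 in OPCs. After thinning to 3000 UMIs, at least 3 of the 18 genes were found in 2.96% of 270 SMA COPs (1.29 to 5.75) and 4.13% of 702 Con COPs (2.78 to 5.88), against 35.0% and 40.0% of OPCs. The unthinned shares of COPs were 8.86% and 12.5%, and microglia had thinned shares of 20.5% and 13.9%. Of 8 genes of the cell cycle exit list (inhibitors, G1 cyclins and Btg1), 3 were at least 2-fold lower in COPs of both libraries and 1 higher, with medians of −0.81 and −1.06. The higher gene was Cdkn1c, an inhibitor of cyclin-dependent kinases (691 and 627 CPM, 2.37 and 1.96), and the lower genes were the inhibitor Cdkn2c (−4.05 and −2.65) and the cyclins Ccnd1 (−2.36 and −2.94) and Ccnd2 (−1.75 and −2.59).

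Most other genes of the OPC list were lower and most genes of early differentiation and myelin higher. Of 15 OPC markers, 6 had chosen the OPCs and are set aside. Of the 9 others, 6 were at least 2-fold lower in COPs of both libraries and 1 was higher, where 11.8% and 4.06% of all compared genes were. The proteoglycan Cspg5 had log2 ratios of −2.98 and −3.33, the retinoid-binding protein Rlbp1 −3.35 and −3.43 and the lipid-binding protein Fabp7 −1.88 and −1.94. The exception was Tnr, a matrix glycoprotein, at 2.43 and 2.25. Of 13 early differentiation genes, 10 were at least 2-fold higher in both and 0 lower, with medians of 3.31 and 3.51, and of 16 myelin genes 10 were higher and 0 lower, with medians of 2.45 and 2.40.

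The summed myelin list placed COPs between OPCs and oligodendrocytes. It took 14797 CPM in SMA COPs and 19105 CPM in Con COPs, against 1979 and 2764 CPM in OPCs and 66792 and 63985 CPM in oligodendrocytes (86 and 102 cells). Mog, a late myelin protein that is also among the exclusion genes, was found in 2.2% and 5.7% of thinned COPs (7.01% and 15.3% unthinned), 1.6% and 2.8% of microglia and 72.0% and 80.8% of oligodendrocytes. The early differentiation list instead stood higher in COPs, at 7137 and 8382 CPM, than in oligodendrocytes, at 5001 and 6066 CPM, and was at 807 and 944 CPM in OPCs. COPs were the class with the highest level of this list among these classes in both libraries. The oligodendrocyte class was not pure in its RNA. Schwann cell markers stood at 2678 and 8054 CPM there, against 29.2 and 39.2 CPM in COPs and 261 and 285 in microglia. After thinning, 17.3% and 12.3% of its cells had at least 3 cell-cycle genes, against 2.96% and 4.13% of COPs. The part of Schwann-like or dividing cells in its levels, and in the lineage count above, was not tested.

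Among transcription factors, 9 of 18 were at least 2-fold higher in COPs than in OPCs of both libraries and 2 were lower. Of all compared genes 4.06% were higher and 11.8% lower, so the lower genes were near the share of all genes. Myrf, which drives the myelin programme, had log2 ratios of 3.55 in SMA and 3.25 in Con, Nkx6-2 3.77 and 2.86, Tcf7l2 2.19 and 2.33 and Nkx2-2 1.97 and 1.63. Sox10 (0.63 and 0.59) and Olig2 (−0.29 and −0.28), present along the lineage, were near their OPC level. The Notch effectors Hes5 (−2.21 and −2.61) and Hes1 (−2.40 and −2.91) were lower. Cholesterol synthesis did not separate the classes, with 0 of 20 genes 2-fold apart in both libraries.

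COPs differed among themselves along the same axis. In each cell thinned to 3000 UMIs, which left out 1 SMA and 17 Con COPs, Enpp6 was found in 45.2% of SMA COPs and 60.0% of Con COPs. It was in 0.6% and 1.2% of OPCs and in 0.7% and 1.1% of microglia, which should lack it (median depths before thinning 6738 and 6965 UMIs). Before thinning the COP shares were 61.6% and 75.4%. The log2 ratio of the thinned shares, SMA over Con, was −0.41 (−0.62 to −0.20). Pdgfra was found in 3.7% and 4.6% of COPs (8.12% and 8.07% unthinned), a ratio of −0.30 whose interval (−1.30 to 0.70) spans 0, while OPCs, which it defines, were at 79.4% and 77.1% and microglia at 0.6% and 1.4%.

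Pdgfra was found in few COPs, with or without Enpp6. Enpp6 without Pdgfra was found in 121 SMA COPs (44.8%, 38.8 to 51.0) and 410 Con COPs (58.4%, 54.7 to 62.1). Neither gene was found in 139 (51.5%, 45.3 to 57.6) and 260 (37.0%, 33.4 to 40.7). Pdgfra alone was found in 9 (3.33%) and 21 (2.99%), and both genes in 1 (0.370%) and 11 (1.57%). The intervals of SMA and Con did not meet for the Enpp6 state or for the state with neither gene. Cells with Enpp6 alone were deeper before thinning, with medians of 9284 and 9535 UMIs, than cells with neither, with 7648 and 8186. The part of total RNA content in these states was not tested.

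**Figure D3:**
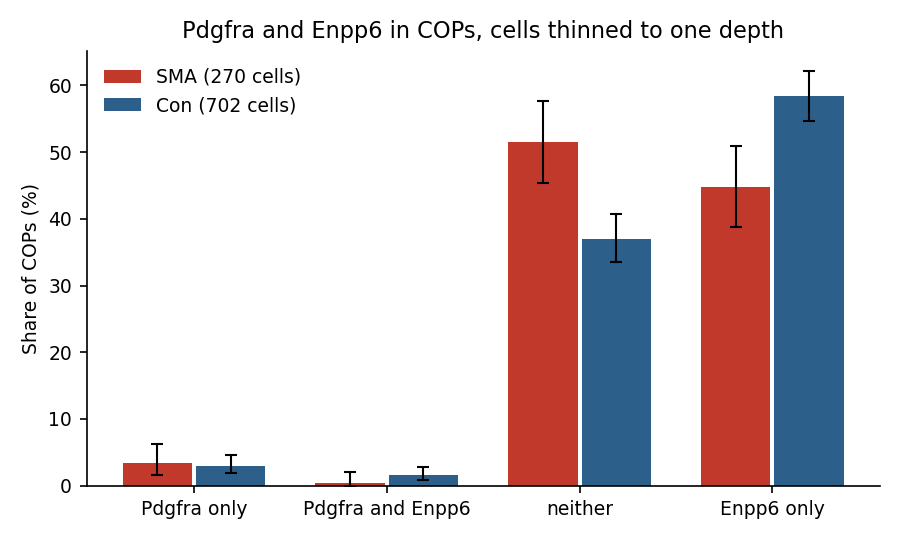
Share of COPs (y axis, percent) by detection of Pdgfra and Enpp6 at 3000 UMIs per cell (x axis), in SMA and Con. Bars are shares and whiskers exact 95% intervals. Enpp6 alone was found in 44.8% of SMA and 58.4% of Con COPs, and Pdgfra with or without Enpp6 in few.

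Several myelin genes were higher and several OPC genes lower in COPs with an Enpp6 UMI than in COPs without. Mbp, myelin basic protein, had 5068 CPM with Enpp6 and 1773 CPM without in SMA, and 7605 and 2473 CPM in Con, log2 ratios of 1.52 and 1.62. Mag had ratios of 2.14 and 2.51, the tight junction gene Cldn11 1.26 and 1.81, and the early differentiation gene Cnksr3 2.86 (1.09 to 5.27, on 18 and 3 UMIs) and 2.05. In the other direction, Cspg5 was at −2.24 in SMA and −2.15 in Con, Ccnd1, a G1 cyclin, at −1.26 and −1.36, and the differentiation inhibitor Id2 at −2.31 and −0.71. Pdgfra was at −3.18 and −2.25, but on 1 and 11 UMIs in SMA (interval −8.61 to −0.40) and 12 and 38 in Con. Olig1 was at −0.20 in each.

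Not all genes of commitment followed Enpp6. Nkx2-2 (−0.38 in SMA and −0.33 in Con) and the rule gene Gpr17 (−0.21 and −0.27) were somewhat lower in cells with Enpp6, while Myrf (0.76 and 0.99) and Tcf7l2 (0.87 and 0.73) were higher. Cd9, a tetraspanin listed with the myelin genes, did not go with Enpp6 (0.09 and −0.08), although it was 2.70 and 2.30 higher on the log2 scale in COPs than in OPCs. The myelin-list gene Gjb1 was lower with Enpp6, at −1.57 (−3.35 to −0.087, on 5 and 18 UMIs) in SMA and −1.58 (−2.77 to −0.48) in Con, and Mobp was at −1.22 and −0.32 with intervals that span 0. Tnr, an OPC-list gene, was higher with Enpp6, at 0.62 and 0.94. The plot of genes by Enpp6 state shows that the split had the same direction in both libraries for the named genes that moved most.

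**Figure D4:**
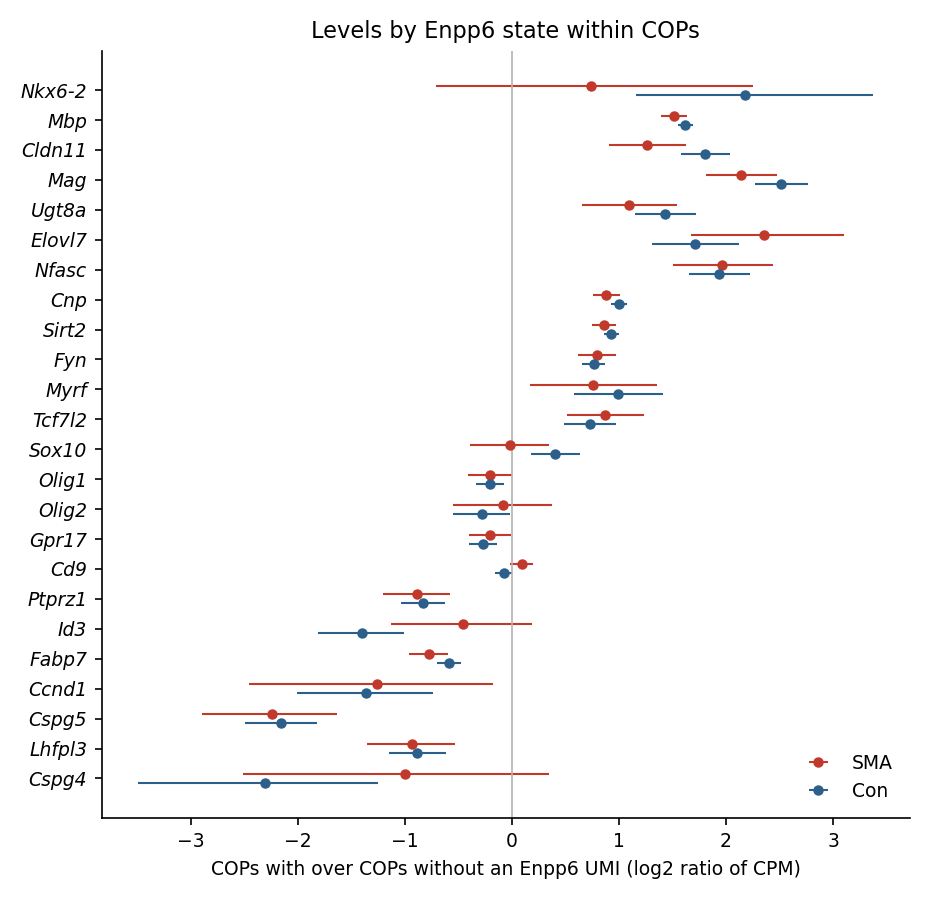
Log2 ratio of level in COPs with over without an Enpp6 UMI (x axis) for 24 genes (y axis), at 3000 UMIs per cell, SMA in red and Con in blue. Points are ratios and bars 95% counting intervals. Mbp (1.52 and 1.62) lies to the right and Cspg5 (−2.24 and −2.15) to the left.

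The rule admits cells through Bmp4 or Epcam, and the mixture of these differed between libraries. Epcam without Bmp4 was found in 44 of 270 thinned SMA COPs (16.3%, 12.1 to 21.3) and 59 of 702 Con COPs (8.40%, 6.46 to 10.7). Bmp4 without Epcam was found in 89 (33%) and 288 (41.0%), and both in 77 (28.5%) and 199 (28.3%). After thinning, neither gene was found in 60 and 156 cells (22.2% in each library). The Epcam-only cells had the lowest Mbp of these 4 groups, at 1977 CPM in SMA and 3480 CPM in Con, against 3393 and 5958 CPM in Bmp4-only cells. Their Pdgfra was at 53.0 and 56.5 CPM, against 11.2 and 13.9 CPM in Bmp4-only cells and 11.1 and 53.4 CPM in cells with neither gene. Cells with both genes had the highest Cd9, at 4281 and 3419 CPM. These counts follow the rule's own genes and are given as a description.

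In the SMA and Con comparison, 7803 genes had at least 100 UMIs over the COPs of both libraries. Of these, 30 (0.384%) were at least 2-fold higher in SMA and 40 (0.513%) at least 2-fold lower. The counting interval lay above 0 for 1276 genes (16.4%) and below 0 for 747 (9.57%), and the median log2 ratio was 0.045. The gene lists that follow were read against these shares. COPs of SMA had lower RNA of the myelin, early differentiation and cholesterol lists and higher RNA of the immediate early and p53 lists, while the transcription factors of the lineage were near 0. The Notch list had 4 of 10 intervals above 0. Its median of 0.16 fell below that of all genes without the Con COPs that had an Xist UMI. The number of 2-fold genes rested on the cells used: with shared barcodes kept it was 17 higher and 20 lower, of which 9 and 19 were among these genes.

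**Figure D5:**
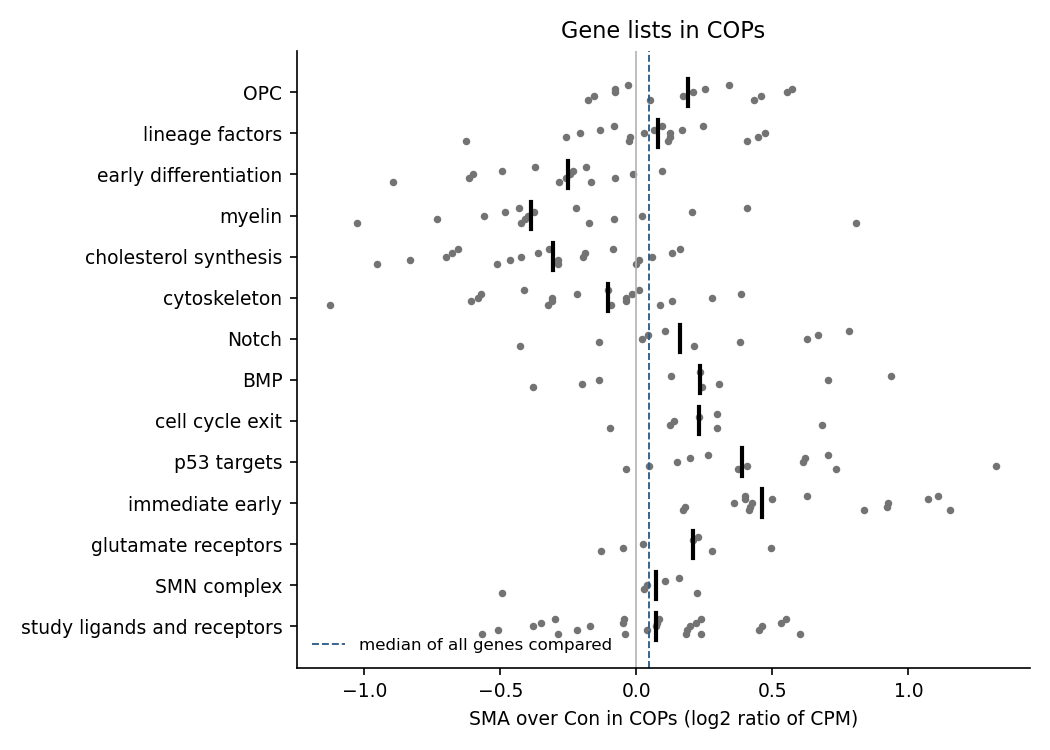
Log2 ratio of COP level, SMA over Con (x axis), for 14 gene lists (y axis). Dots are genes with at least 100 UMIs, vertical bars list medians, and the dashed line the median of all genes (0.045). The myelin median lies at −0.39 and the immediate early median at 0.46.

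Myelin genes were lower in SMA COPs. Of 16 genes with enough UMIs, 9 had intervals below 0 and 3 above, with a median of −0.39, and the summed list had a log2 ratio of −0.37 (−0.39 to −0.35). Mbp was at 3785 CPM in SMA and 6297 CPM in Con (−0.73, −0.77 to −0.70). Cnp, an enzyme of non-compact myelin, was at 2883 and 3891 CPM (−0.43). Mag was at −0.38, Cldn11 at −0.56 and Gal3st1, which makes sulfatide, at −0.40. Mobp, a late gene, had 28.3 and 57.6 CPM (−1.03, −1.43 to −0.64).

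Cd9 went the other way, at 3241 CPM in SMA and 2443 CPM in Con (0.41, 0.37 to 0.45), with OPCs at 499 and 496 CPM. The gap junction genes Gjb1 (24.4 and 13.9 CPM, 0.81) and Gjc3 (0.20) were also higher. Mbp differed in OPCs as well, at 433 and 864 CPM, a ratio of −1.0, and the summed list was at −0.48 in OPCs and at 0.00 in microglia. Microglia had Mbp at 598 and 689 CPM, and a Mbp UMI in 41.0% of thinned cells in SMA and 54.6% in Con against 90.0% and 94.9% of COPs (94.8% and 98.3% unthinned). With shared barcodes kept the list's median was −0.21.

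The myelin list was lower in SMA within each Enpp6 state as well. In cells with an Enpp6 UMI the summed myelin list was at −0.31 (−0.35 to −0.27) and in cells without at −0.12 (−0.17 to −0.07), SMA over Con. Mbp was at −0.59 and −0.48 in the 2 states and Cnp at −0.36 and −0.25. Mag was at −0.047 and 0.33, both with intervals that span 0. Cd9 stayed higher in each, at 0.39 and 0.23. Per cell thinned to 3000 UMIs, the median Mbp count was 6 in SMA and 11 in Con. Without thinning, the myelin list took a median of 1.24% of a cell's UMIs in SMA (5th to 95th percentile 0.293 to 2.93) and 1.59% in Con (0.318 to 3.98). The ranges of single cells overlapped over most of their length.

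Early differentiation genes were also lower. Of 14 genes, 9 had intervals below 0 and 0 above, with a median of −0.25 and a summed ratio of −0.23. Enpp6 was at −0.49 (−0.60 to −0.39). Cnksr3, a scaffold of kinase signalling, had 35.7 and 66.3 CPM (−0.89, −1.25 to −0.55), Rras2, a small GTPase, was at −0.61, and Nfasc, an adhesion protein of the node of Ranvier, at −0.37. The deacetylase Sirt2 had 3590 and 4256 CPM (−0.25) and the kinase Fyn was at −0.17. 9630013A20Rik stayed near 0 at −0.01. The summed list was at −0.23 in OPCs and −0.003 in microglia. Within Enpp6 states its ratio was −0.14 and −0.13. With shared barcodes left out of both libraries the list's median turned to 0.19.

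Cholesterol synthesis genes, whose product makes up much of the myelin membrane, had 11 of 20 intervals below 0 and 2 above, a median of −0.31 and a summed ratio of −0.26 in COPs, against −0.021 in OPCs and −0.14 in microglia. Fdps, which makes farnesyl diphosphate, had 420.4 and 673 CPM (−0.68), and Hmgcs1, an early enzyme of the pathway, 527 and 752 CPM (−0.51). The later enzymes Lss (26.1 and 50.5 CPM, −0.95), Dhcr7 (−0.83) and Nsdhl (−0.70) were lower too. Idi1, an isomerase of the pathway, was higher at 0.16. Within cells with an Enpp6 UMI the summed list was at −0.26 and in cells without at −0.13.

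Of 19 cytoskeleton genes, 11 had intervals below 0 and 3 above, with a median of −0.11. Among the lower were the tubulins Tubb4a at −0.61 and Tubb2b at 1540.3 and 2289 CPM (−0.57), the microtubule protein Map1b at 554 and 829 CPM (−0.58) and Tppp, which promotes tubulin polymers in oligodendrocytes, at −1.13 on 15 and 93 UMIs. Actin itself (Actb, −0.04) was near 0. Tmsb10, which binds actin monomers, was higher at 0.38, and it was higher in OPCs (0.40) and microglia (0.28) as well.

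Lineage transcription factors had a median of 0.079, with 5 of 18 intervals above 0 and 2 below. Olig1 (0.03), Olig2 (−0.13), Sox10 (−0.03), Myrf (0.06) and Nkx2-2 (0.09) had intervals that span 0. Sox8 (0.25), Sox5 (0.47) and Zfp488 (0.41) were higher, and Sox4 (−0.26) and St18 (−0.63), which is nearly absent from OPCs, were lower. Of 14 OPC genes, 5 intervals were above 0 and 1 below, with a median of 0.19 (0.11 with shared barcodes kept). The protease inhibitor Serpine2 had 808 and 544 CPM (0.57), Lhfpl3 was at 0.55 and the phosphatase Ptprz1 at 0.34, whereas Pdgfra was at 18.3 and 20.4 CPM (−0.16, −0.69 to 0.35). The OPC list took 0.461% of an SMA COP's UMIs at the median and 0.412% of a Con COP's.

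Immediate early genes, which answer a stimulus within minutes, were higher in SMA COPs. Of 16 genes, 11 intervals were above 0 and 0 below, with a median of 0.46 (0.83 with 4 markers required), and the summed level was 2374 CPM in SMA and 1479 CPM in Con (0.68). Fos had 604 and 272 CPM (1.15, 1.05 to 1.25), Egr1 126 and 58.5 CPM (1.11), Junb was at 0.84 and Nr4a1 at 0.93. OPCs had a summed ratio of 0.47 and microglia of −0.20. Microglia held far more of this RNA, at 16409.8 and 18804 CPM. The heat shock gene Hspa1a, on 5 and 39 UMIs, was outside the comparison.

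Microglial markers moved along with these genes in the COPs. The 10 markers summed to 521 CPM in SMA COPs and 331 CPM in Con COPs, with 7 of 9 intervals above 0 and a median of 0.62, and to 843 and 573 CPM in OPCs. In microglia they stood at 25943 and 25417 CPM. No marker was at 0, and the share of COPs with a UMI of a single marker ran from 2.58% to 22.5% in SMA and from 1.67% to 21.0% in Con. Csf1r, C1qa, C1qb, C1qc, Ctss and Tyrobp were among the 7 higher genes. The part of microglial RNA in the immediate early and p53 results was not tested.

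Targets of p53, which SMN loss is known to engage in motor neurons, had 6 of 12 intervals above 0 and 0 below, a median of 0.39 and a summed ratio of 0.37. The ratio was 0.34 in OPCs and −0.075 in microglia. Cdkn1a, the p21 inhibitor of the cell cycle, had 40.9 and 25.1 CPM (0.70, 0.32 to 1.08) and was found in 8.1% and 2.6% of thinned COPs (18.5% and 6.40% unthinned) and in 50.2% and 37.3% of microglia. In OPCs its ratio was 1.28 and in microglia 0.70. Phlda3 (0.73), Plk2 (0.62), Aen (0.37) and the apoptosis effector Bax (475 and 396 CPM, 0.26) were higher. Btg2, which also belongs to the early response genes, had 93.1 and 37.2 CPM (1.32). Mdm2, the target that degrades p53, was at −0.04.

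The Notch list had 4 of 10 intervals above 0 and 0 below, with a median of 0.16, or 0.041 without the Con COPs that had an Xist UMI. The target Hes5 had 61.8 and 40.0 CPM (0.63), Hes1 was at 0.67, the feedback gene Nrarp at 0.78 and the effector Rbpj at 0.38, while the receptors Notch1 (−0.14) and Notch2 (0.21) had intervals spanning 0. In the BMP list 2 of 9 intervals were above 0 and 1 below, with a median of 0.24 that was 0.10 without the same Con cells. These counts were close to the shares over all compared genes, 16.4% above 0 and 9.57% below. The target Id1 had 47.4 and 24.8 CPM (0.94, 0.57 to 1.29) and the receptor Bmpr1a was at 0.70, but Id2 was lower at −0.38 and Id3 was at −0.14 (−0.37 to 0.08). The ligand Bmp4, which chose the cells, was at −0.32. Of 12 Wnt genes only Ctnnb1 and Apc had enough UMIs, and neither interval left 0.

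Some cell-cycle genes, already low in COPs, were lower still in SMA. Of 18 genes 7 had enough UMIs, 4 with intervals below 0 and 0 above and a median of −0.63. That median was −0.26 with shared barcodes kept and −0.36 without the cells holding other RNA described below. The 4 were Top2a (−0.92), Birc5 (−0.63), Cdk1 (−0.87) and Ube2c (23.9 and 47.9 CPM, −1.0). The summed ratio of the list was −0.41 (−0.56 to −0.26) in COPs, −0.019 in OPCs and 0.46 in microglia. Inhibitors and cyclins of the exit list had 4 of 7 intervals above 0 and 0 below, with Cdkn1c at 0.14, the cyclins Ccnd2 at 0.68 and Ccnd3 at 0.30 and the antiproliferative Btg1 at 0.30. The share of COPs with at least 3 cycle genes, given above, had overlapping intervals in SMA and Con.

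Ligands and receptors named in the study's analysis of cell communication, a list that was chosen on these samples and is no independent evidence, had 4 of 26 intervals above 0 and 6 below. Over all compared genes 16.4% of intervals were above 0 and 9.57% below, so the share above was near that of all genes. Ptn, the growth factor pleiotrophin, had 2004 and 1319.7 CPM (0.60, 0.55 to 0.65), and its proteoglycan receptor Sdc3 was at 0.55. Its relative Mdk was at −0.30. The synaptic adhesion gene Nrxn2 (0.53) was higher, and Jam3 (−0.57), Ephb1 (−0.51), App (−0.38), Mpzl1 (−0.35) and Psap (−0.29) were lower. Glutamate receptor genes had 2 of 7 intervals above 0 and a median of 0.21 (0.074 with shared barcodes kept), with Gria2, the AMPA subunit that limits calcium entry, at 346 and 296 CPM (0.23). Of the SMN complex, 6 of 9 genes had enough UMIs and 0 intervals left 0, with a median of 0.071.

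The 12 genes that were highest in SMA by the lower end of their interval were led by Maff, a small Maf transcription factor, with 45.7 and 15.2 CPM (1.59, 1.18 to 2.0). Maff was also higher in OPCs (1.00) and in microglia (0.32). The metallothioneins Mt3 (286 and 122 CPM, 1.23) and Mt1 (644 and 339 CPM, 0.92), which bind zinc and copper, were higher in COPs, OPCs (0.75 and 0.68) and microglia (1.02 and 0.71). The histone gene Hist1h2bc had 197 and 84.8 CPM (1.21), with larger ratios in OPCs (1.99) and microglia (2.06), and mt-Nd4l, of the mitochondrial genome, was at 1.07, with 1.29 and 1.43 there. Irf1, an interferon response factor, had 27.9 and 10.1 CPM (1.46), Mia, a secreted protein, 27.9 and 10.3 CPM (1.44) and the calmodulin regulator Pcp4 274 and 133 CPM (1.05). Ddx3y, on the Y chromosome, was at 1.46. Btg2, Fos and Egr1 complete these 12 genes. With shared barcodes kept, 6 of the 12 left their counting interval, with Mt3 at 0.97, Fos at 1.01, Hist1h2bc at 0.99, mt-Nd4l at 0.83, Pcp4 at 0.79 and Mt1 at 0.73.

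The 12 genes that were lowest in SMA COPs by the same rule were, apart from Xist (6.53 and 814 CPM, −6.96), genes of other cells. They were Mfap4, Col3a1, Col1a2, Col1a1, Serpinf1, Dcn, Bgn and Pcolce, matrix genes of fibroblasts, then Myl9 of mural cells, the lectin Lgals1, and Alas2, a haem enzyme of red cell precursors. Col1a2 had 10.9 and 96.3 CPM (−3.15), and OPCs had −2.85. The 5 fibroblast markers summed to 25.7 CPM in SMA COPs and 247 CPM in Con COPs, with Lum at 0 in SMA (0 of 271 cells, which allows a share of up to 1.11%). Of the 1611 fibroblast UMIs in Con COPs, 1524 were in 8 cells with at least 10 each, and of the 59 in SMA 42 were in 2 cells. Of 349 Alas2 UMIs in Con, 340 were in 22 cells. With shared barcodes kept, Xist was at −1.78 and Alas2 at −0.59. RNA of fibroblasts and of Alas2 thus lay in few cells, and whether these are doublets was not tested.

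When the 13 SMA and 52 Con COPs with at least 3 UMIs of the fibroblast and mural markers or of Alas2 were left out, a choice made after the data were seen, 31 genes were 2-fold higher and 25 lower, of which 23 and 16 were among those above. Lgals1 then had a ratio of 0.033. The lower genes included Tppp (−1.27) and the enzyme of mitochondrial folate metabolism Mthfd2 (−1.14), which were also among those above, and Cnksr3 (−1.0) and Ddc, which makes dopamine and serotonin from their precursors (34.9 and 77.7 CPM, −1.15), which were not. The higher genes included Ifitm3, an interferon-induced membrane protein (1.34), Junb (1.08) and Id1 (1.03). The myelin median was −0.46 and the immediate early median 0.65 in the remaining cells. With the 423 Con COPs that had an Xist UMI left out, these medians were −0.30 and 0.56.

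With shared barcodes left out of both libraries, the 42 remaining Con COPs summed to 135707 UMIs, and 3816 genes had enough UMIs. Of these, 266 were 2-fold higher in SMA and 39 lower, of which 4 and 1 were among those of the first comparison. The medians were −0.22 for the myelin list, −0.15 for cholesterol synthesis, −0.38 for the cell cycle, 0.62 for the immediate early genes and 1.01 for p53 targets. The early differentiation median turned to 0.19 and Col1a2 to 0.56. Maff was at 0.31, Fos at 0.66 and Btg2 at 0.85 in these cells.

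Other cells' markers gave the following sums in SMA and Con COPs. Astrocyte markers (8 genes) stood at 486 and 411 CPM, neuronal markers (6) at 216 and 180 CPM, endothelial markers (6) at 25.7 and 35.2 CPM and mural markers (6) at 93.6 and 172 CPM. Schwann cell markers (5) were at 29.2 and 39.2 CPM, with Cdh19 at 0 in both libraries (0 of 719 Con cells, up to 0.417%). Ependymal markers (4) were at 30.9 and 6.43 CPM on 71 and 42 UMIs. Erythroid markers (5), haemoglobins for the most part, were at 17298 and 26919 CPM, lower in SMA, and they were also lower in OPCs and microglia. The part of these RNAs in the results was not tested.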

How the data were processed

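The authors made the deposited counts, raw UMI counts per gene and barcode, from 10x Genomics 3′ libraries with Cell Ranger. The file headers give version 4.0.0. The submitters' processing notes name mm10 and Seurat 3.2.2. Counts carried no normalization. Gene positions came from GENCODE M21 on GRCm38, which matched 32158 of 32285 identifiers, and 38 symbols that occur more than once were kept apart by identifier.

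Groups came from the labels. The members and gene lists were chosen with earlier results of these data known. Microglia were cells with Cx3cr1 and at least 4 of 6 microglial genes, Cx3cr1 included. Values of some list members are not reported here. Doublets were treated by the limit of 4000 genes alone. UMIs were summed over each class and library. Genes entered the SMA and Con comparison with at least 100 UMIs over both libraries. Intervals, at 95%, were exact conditional binomial for ratios of UMIs, exact Clopper-Pearson for shares and log-scale for a ratio of 2 shares. A count of 0 was given a limit of 3 counts. Detection was compared after thinning each cell to 3000 UMIs, with 2000 as an alternative. Named genes were the members of the gene lists and, for SMA over Con, the 12 in each direction whose interval bound nearest 0 lay farthest out. For COPs over OPCs they were drawn from the 15 highest and 12 lowest by the smaller ratio of the libraries, without the genes of either rule. Genes named from the comparison without cells holding other RNA were chosen after their values were seen. Whole-genome sequence was not used here, and upstream windows came from a RefSeq table. Scripts were tested on simulated data. Python 3.11.15, numpy 2.4.6, scipy 1.17.1, pandas 2.3.3 and matplotlib 3.10.9 were used.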

Additional observations from a re-analysis of the deposited data

Results flagged for a closer look

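A pair of cell-cycle genes had opposite directions in COPs and OPCs. Cdk1, the kinase that drives mitosis, had a log2 ratio of SMA over Con of −0.87 in COPs (19 and 99 UMIs) and 0.15 in OPCs (1698 and 1331 UMIs). Ube2c, which tags cyclins for degradation, had −1.0 in COPs (55 and 313 UMIs) and 0.41 in OPCs (4442 and 2904 UMIs). In each case the counting intervals lay on opposite sides of 0. The difference between the classes was not tested, as there was 1 library per genotype.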

How the results depend on the processing

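No paired analysis was possible because each genotype was 1 library and the labels carry no replicate numbers. For the same reason no library could be left out. The COP share ratio (−0.81) was −0.40 with shared barcodes kept, −1.01 with a ribosomal limit, −1.14 with the rule after thinning and −1.30 among lineage cells. Genes 2-fold higher (30) and lower (40) in SMA COPs numbered 17 and 20 with shared barcodes kept (9 and 19 in common with the reported genes), 79 and 89 at a minimum of 50 UMIs, 10 and 7 at 300, and 1283 and 571 with no minimum. Lower genes numbered 25 with 4 markers required (19 in common), 25 without COPs holding other cells' RNA (16) and 24 without Con COPs with Xist (18). The last of these gave 25 higher genes, with 10 in common, and 4 markers required gave 40, with 23 in common. With shared barcodes left out of both libraries the share ratio turned to 1.81 (−0.36 among lineage cells), higher genes numbered 266 (4 in common) and lower 39 (1), the early differentiation median turned from −0.25 to 0.19, the myelin median was −0.22 and Col1a2 turned from −3.15 to 0.56. Leaving out the COPs with other cells' RNA, the Con COPs with Xist or the shared barcodes of both libraries was chosen after seeing the data. At 300 UMIs, 83 genes were 4-fold higher and 194 lower in COPs than OPCs. The myelin median (−0.39) was −0.21 with shared barcodes kept. The haemoglobin median (−0.61) was −0.12 without cells holding other RNA, and Lgals1 turned from −1.50 to 0.033. The lineage factor median (0.079) was −0.00071 with 4 markers. The cytoskeleton median (−0.11) was 0.060 with shared barcodes left out of both. Of the values for named genes and for lists other than OPC, early differentiation and myelin under alternatives, 242 stayed within their counting interval, these last 2 medians included, 60 left it and 2, Lgals1 and Col1a2, turned. The fewer UMIs of SMA COPs widen all intervals, and genes under 100 UMIs were not compared.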

Other observations

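Gene families outside the lists above were summed in SMA and Con COPs as well. Over all compared genes 16.4% of intervals lay above 0 and 9.57% below. Intervals are narrower for genes with more UMIs, so counts of intervals in abundant families do not compare evenly with those shares. Ribosomal proteins, which build the ribosome, took 121559 CPM in SMA and 118791 CPM in Con, a summed log2 ratio of 0.033. Their median ratio was 0.026, against 0.045 for all genes, with 33 of 79 intervals above 0 and 23 below. Nuclear genes of oxidative phosphorylation, the subunits of the respiratory chain and its ATP synthase, had 41 of 80 intervals above 0 and 11 below, with a summed ratio of 0.13. The mitochondrially encoded subunits of the same complexes went the other way in sum, at −0.15, with 4 of 12 intervals above 0 and 7 below, although mt-Nd4l was at 1.07. In OPCs the sums were 0.073, 0.17 and 0.010. Cells with 10% or more mitochondrial UMIs had been left out of both libraries.

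Histone genes of the clusters, whose transcripts mostly lack a poly(A) tail, had 5 of 67 members with enough UMIs in COPs. All 5 were higher in SMA, 3 with intervals above 0, and the summed ratio was 0.56, with 0.83 in OPCs. Hist1h1b, outside the comparison on 5 and 39 UMIs, went the other way in COPs, at −1.46 (−3.16 to −0.11). Hist1h2bc carried the largest named difference (197 and 84.8 CPM). These sums were described after the lists had been compared.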
